A study of Mus musculus with 100 samples.

Results

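Apolipoproteins are the protein components of lipoprotein particles, and Mttp, the microsomal triglyceride transfer protein, loads lipid onto Apob while the particle is being made. The genes described here are Apob, Apoa1, Apoa2, Apoa4, Apoc1, Apoc2, Apoe, Apom and Mttp. These 9 genes were chosen on measured values of these same libraries, among them those of the extraembryonic endoderm cultures, and the comparison of those cultures is therefore described and not tested. Of the 9, 8 were found among the 23109 gene-level entries of the RNA tables, and Apoc2 is not analysed here. Reads were counted for 1 transcript per gene, the one with most reads over all libraries, and given as CPM, the reads of a gene per 1000000 gene-level reads of its library.

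The liver, the intestine and the visceral endoderm of the yolk sac build Apob-containing particles: Apob is the large scaffold protein, Mttp is needed for its lipidation, and Apoa1, Apoa2, Apoa4, Apoc1, Apoe and Apom are exchangeable proteins that associate with these particles or with high-density lipoprotein. Before the chorioallantoic placenta works, the visceral endoderm takes up maternal lipid and passes it to the embryo as such particles. Apoe differs from the others in being made in many cell types, including astrocytes and macrophages. Genes for liver-type apolipoproteins are textbook targets of HNF4A, FOXA and GATA transcription factors.

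The study asked what the catalytic activity of the histone H3 lysine 4 methyltransferases MLL3 and MLL4, which mark enhancers, contributes to mouse development, and the RNA tables used here cover 37 libraries that fall into 18 groups. A further RNA sample, a day 8 neural culture labelled DKO, is not analysed here. Groups hold 1 library (3 groups), 2 libraries (11 groups) or 3 libraries (4 groups). The cultured groups derive from mouse embryonic stem cells that all lack Mll3: Mll3-/-;Mll4flox/flox cells, called flox here, and Mll3-/-;Mll4KI/KI cells, called KI, the latter represented by clones 27 and 48, so that KI libraries of a culture are 1 library per clone. The flox cells keep Mll4, so flox against KI compares cells with the Mll4 KI allele with cells that have MLL4 and no MLL3, and no wild-type culture is among these libraries. The cultures were embryonic stem cells in 2i and LIF (day 0), embryoid bodies grown as hanging drops without LIF (days 4 and 10), neural cultures made from embryoid bodies with retinoic acid (day 8 progenitors, day 16 neurons), trophectoderm-like cells made by doxycycline-induced CDX2 from a lentivirus (day 6), and extraembryonic endoderm made with retinoic acid and activin A (day 5). The flox cultures of the embryoid body course have 1 library per day, and the other cultured groups have 2 libraries.

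Whole embryos were collected at E8.5 and E9.5, 3 per group: Mll3flox/KI;Mll4flox/KI;Sox2-Cre embryos (KI) and Mll3flox/KI;Mll4flox/+;Sox2-Cre embryos (control). Both embryo groups carry Sox2-Cre, which recombines in the epiblast and its descendants and not in the visceral endoderm, and both carry 1 KI allele of Mll3. The labels do not say whether the yolk sac was removed. They do not say that libraries of 1 group come from separate cultures, so p-values measure the spread between these libraries, which may be technical. In such bulk RNA, fewer cells of a type and less RNA per cell cannot be told apart.

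Gene-level totals ran from 18908148 to 59880727 reads, with the neural libraries deepest, from 39015978 reads up, and 3 reads, the detection floor used here, equalled 0.05 to 0.159 CPM. Marker lists were set against each label. Summed over 14 visceral endoderm markers, flox extraembryonic endoderm reached 1183 to 1196 CPM and flox embryonic stem cells 7.09 CPM. Day 16 neural cultures held 5112 to 5349 CPM of 10 neuronal markers in flox and 7739 to 8354 CPM in KI. Trophectoderm-like cultures held 3402 to 3479 CPM of 12 trophoblast markers in flox and 5929 to 6140 CPM in KI, together with 1658 to 1665 CPM of 10 pluripotency markers in flox and 495 to 704 CPM in KI, although Prl3d1, a giant cell marker, was near 0. The trophoblast list does not set these cultures apart from extraembryonic endoderm, where it summed to 3196 to 3210 CPM in flox and 4211 to 5098 CPM in KI.

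The 250 bases upstream of the annotated start are shown for Apob, its lipid-loading partner Mttp, and the cluster members Apoa1 and Apoa4. RNA of these 4 genes was lower in KI extraembryonic endoderm, as was that of Apoe and Apom, whose windows are not shown. The windows come from RefSeq on GRCm38.p6, while the submitters' processing notes name mm9 for the RNA tables, so the coordinates belong to the sequences only. Of the 9 genes, 8 had a promoter entry, and Apoc1 is named only. Capitals mark matches to an HNF4-type core (CAAAGG or CAAAGT) or a FOXA-type core (TGTTTAC or TGTTTGC), searched on both strands, so that a match on the other strand reads as its reverse complement. A GATA-type core (AGATAA or TGATAA) was searched too and had no match in these 4 windows. None of the HNF4-type and FOXA-type matches overlap in them.
Apob, plus strand, chr12:7977427-7977676: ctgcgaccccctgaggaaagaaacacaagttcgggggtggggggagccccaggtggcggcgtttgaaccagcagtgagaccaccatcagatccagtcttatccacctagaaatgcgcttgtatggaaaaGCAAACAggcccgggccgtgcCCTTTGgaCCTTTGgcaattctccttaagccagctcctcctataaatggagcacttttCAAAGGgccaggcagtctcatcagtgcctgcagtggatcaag
Apoa1, plus strand, chr9:46228380-46228629: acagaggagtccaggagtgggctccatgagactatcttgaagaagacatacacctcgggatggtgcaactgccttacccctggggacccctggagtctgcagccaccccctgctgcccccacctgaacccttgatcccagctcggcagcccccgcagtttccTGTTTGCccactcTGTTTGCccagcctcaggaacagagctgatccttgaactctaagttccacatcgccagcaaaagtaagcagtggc
Apoa4, plus strand, chr9:46240594-46240843: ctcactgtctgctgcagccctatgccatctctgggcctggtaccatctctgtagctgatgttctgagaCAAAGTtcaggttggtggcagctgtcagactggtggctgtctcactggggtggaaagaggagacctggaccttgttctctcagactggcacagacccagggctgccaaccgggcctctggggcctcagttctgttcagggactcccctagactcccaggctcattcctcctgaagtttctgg
Mttp, minus strand, chr3:138143419-138143668: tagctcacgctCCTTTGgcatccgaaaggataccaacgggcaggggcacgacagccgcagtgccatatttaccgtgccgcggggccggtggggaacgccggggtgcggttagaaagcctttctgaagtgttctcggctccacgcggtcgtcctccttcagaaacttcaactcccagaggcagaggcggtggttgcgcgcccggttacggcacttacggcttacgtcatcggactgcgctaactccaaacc

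The Apob window held 3 HNF4-type cores and 1 FOXA-type core. An HNF4-type core was found in 27.8% of 32851 RefSeq windows of 250 bases, 3 or more of them in 0.584%, and an HNF4-type core together with a FOXA-type core in 2.49%. The Apoa1 window held 2 FOXA-type cores, 7 bases each, at 88 to 82 and 75 to 69 bases before the start. A FOXA-type core was found in 7.29% of all windows and 2 or more in 0.408%. Apoa4 and Mttp each held 1 HNF4-type core. Of the windows not shown, that of Apom held none of the 3 kinds of core, 2 of the 3 Apoe windows held an HNF4-type core, and 1 of the 2 Apoa2 windows held a FOXA-type core. The Apoc2 window held an HNF4-type and a GATA-type core, the 1 GATA-type match among the windows of these genes. The GATA-type core occurs in 16.6% of all windows. A match describes letters and is not a binding site, and no binding data are used here.

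Across the 18 groups the genes followed different patterns. Apoe was the most abundant member per transcript length in all 18 groups by the authors' RPKM (reads scaled by transcript length and library size). Its mean RPKM was 717 in flox trophectoderm-like cells and 652 in flox embryonic stem cells, and 30.2 in KI extraembryonic endoderm, where Apoc1 followed at 15.6 RPKM. In flox extraembryonic endoderm Apoe stood at 327 RPKM and Apob, second, at 29.3 RPKM, an 11.1-fold gap on that scale. Embryos had other members in second place: Apoa1 at 39.5 RPKM against 106 RPKM of Apoe in E8.5 controls, and Mttp at 1.77 RPKM against 30.8 RPKM in E9.5 controls.

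Apob was restricted in range: it reached 1 CPM in 21 of 37 libraries, with its highest value, 525 CPM, in flox extraembryonic endoderm. Next in order of group means came KI and flox day 10 embryoid bodies (241 and 91.7 CPM), then E8.5 control and KI embryos (69.2 and 52.7 CPM) and E9.5 KI embryos (24.4 CPM). The embryo groups overlapped each other and the order among them is within their spread. Apoe and Mttp reached 1 CPM in 37 of 37 libraries. Apoa4, the intestinal and hepatic apolipoprotein that lies in the same gene cluster as Apoa1, had 0 reads in 16 libraries and at most 3 reads in every library of 9 groups.

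**Figure D1:**
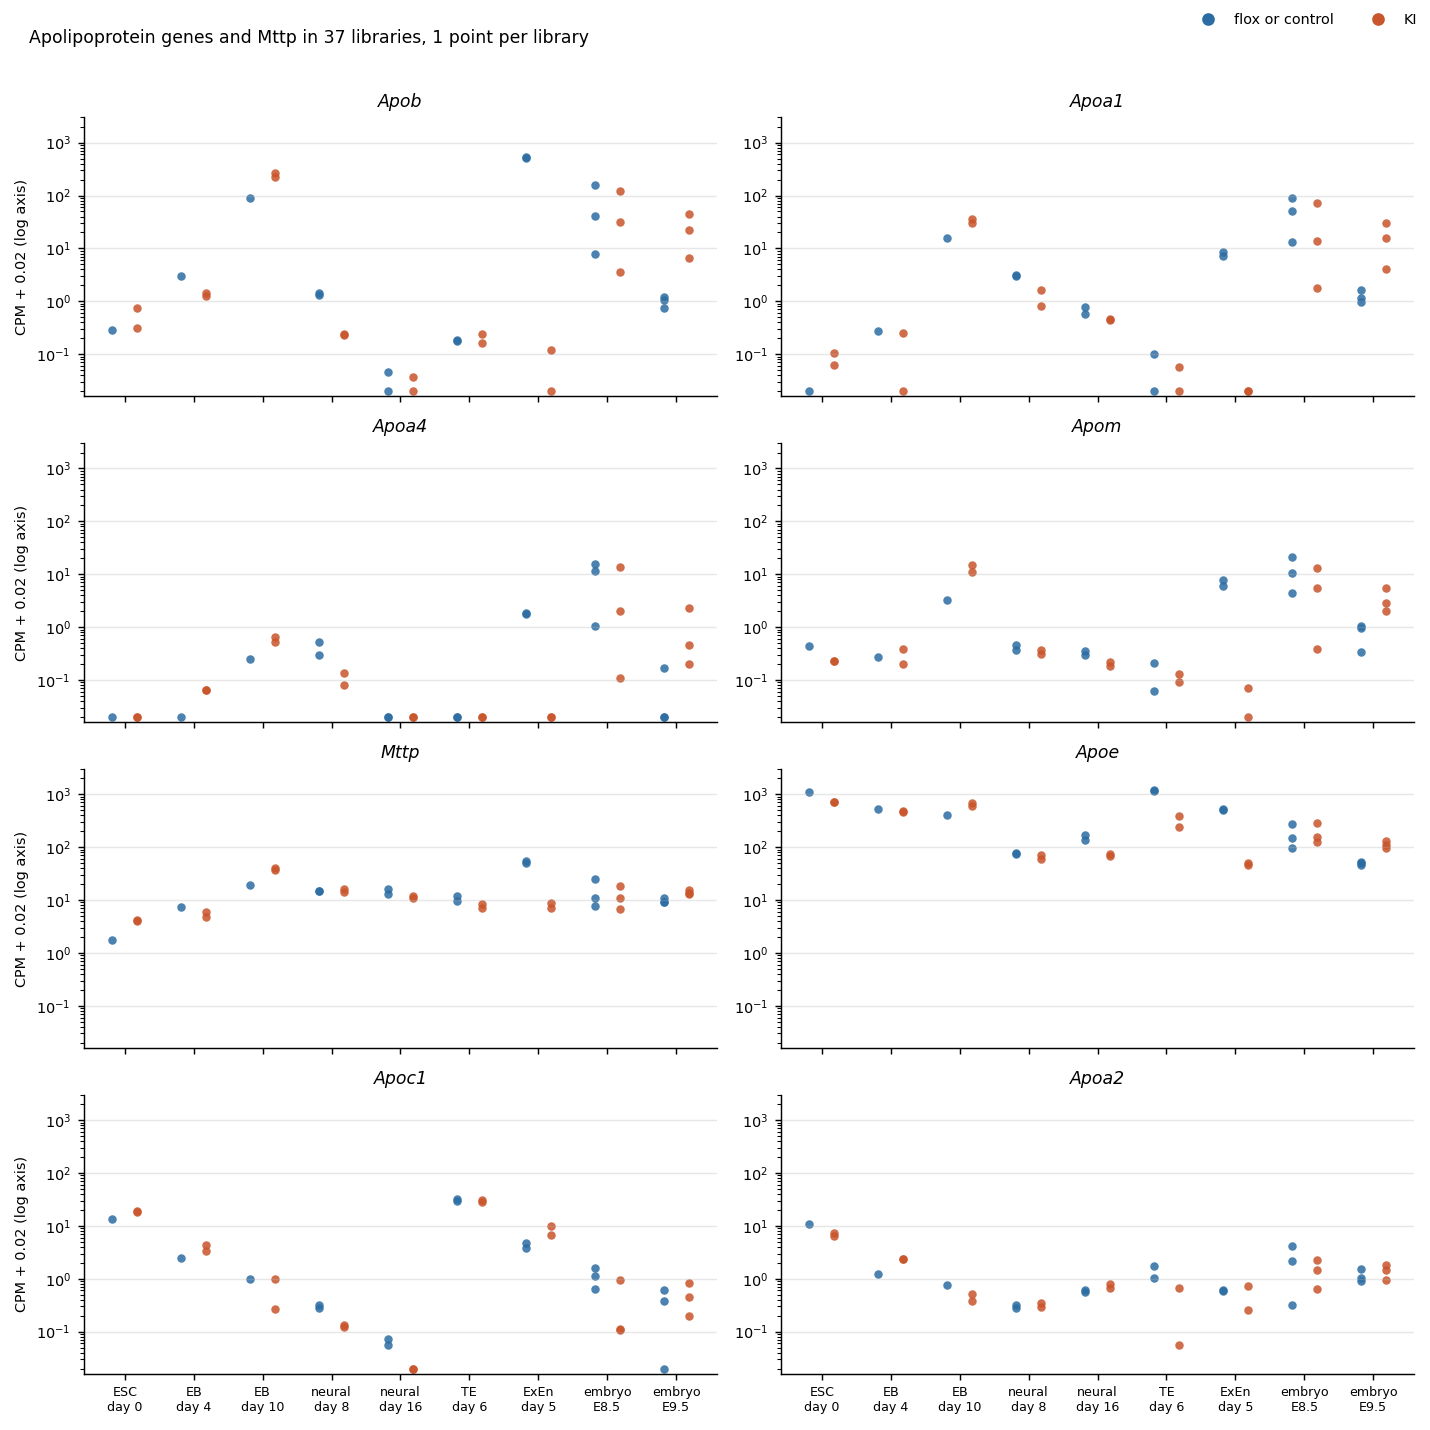
CPM (log axis, 0.02 CPM added so that 0 can be drawn) of the 8 measured genes in all 37 libraries, 1 panel per gene, with 1 point per library and groups along the x axis. Apoe and Mttp are present in all groups, whereas Apob runs from 0 reads to 525 CPM.

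In extraembryonic endoderm, the culture in which visceral endoderm-type cells form, the KI libraries held almost no Apob RNA. Apob had 525 and 504 CPM in the 2 flox libraries, and 0 CPM (0 reads) and 0.101 CPM (2 reads) in KI clones 27 and 48. The summed reads give a ratio of 10588-fold lower, with an exact 95% counting interval of 2931 to 87432, which covers counting error only. Both flox libraries thus stand far above both KI libraries.

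Mttp, the lipid-loading partner of Apob, remained detectable: it had 49.3 and 54.0 CPM in flox and 7.18 and 8.74 CPM in KI, 6.49-fold lower. Among the exchangeable apolipoproteins, Apoa1, the main protein of high-density lipoprotein, had 8.57 and 7.15 CPM in flox and 0 reads in both KI libraries, at least 53.8-fold lower against a floor of 3 reads per library. Apoa4 had 1.84 and 1.74 CPM in flox and 0 reads in both KI libraries, at least 12.2-fold lower against the same floor. Apom, the carrier of sphingosine-1-phosphate on high-density lipoprotein, had 7.75 and 6.03 CPM in flox, and 0 reads and 1 read (0.0505 CPM) in KI. Its summed reads were 284-fold lower in KI (counting interval 50.6 to 11265). For all of these genes the groups do not overlap, which holds in the lower direction for 33.0% of all genes at 1 CPM or more.

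Apoe and Apoc1, which lie in the same gene cluster, differed from each other. Apoe had 513 and 518 CPM in flox and 45.9 and 49.4 CPM in KI, 10.8-fold lower. Apoc1 went the other way, with 3.87 and 4.80 CPM in flox and 10.1 and 6.82 CPM in KI, 1.95-fold higher. Apoa2 was low throughout, at 0.581 and 0.562 CPM in flox and 0.235 and 0.707 CPM in KI, and its groups overlap. Apoa2 overlaps Tomm40l in RefSeq, and whether counting used strand is not given in the sources used here, so its reads are uncertain in every comparison.

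Of the 7 members with at least 1 CPM, 6 had both KI libraries at least 2-fold below both flox libraries once 0.5 CPM was added to each value, a rule met by 3.39% of all genes at that level. This contrast chose the members, so nothing is read from the count or from the medians that follow. The median log2 ratio of the 8 measured members, with 0.5 CPM added, was -3.03, and that of the 13892 genes at 1 CPM or more 0.03. The summed level of the visceral endoderm markers moved with them: it was 1183 to 1196 CPM in flox and 109 to 113 CPM in KI. Its largest terms in flox were Cubn and Dab2, with means of 452 and 386 CPM, against 2.25 and 77.2 CPM in KI. Of the visceral endoderm markers, Hnf4a, Spink1, Fgb and Aqp8 were at or under the floor of 3 reads in both KI libraries. Serpina1b had 0 reads in all flox and KI libraries here, and Trf differed little, with means of 6.58 CPM in flox and 6.45 CPM in KI. Summed parietal endoderm markers were 9601 to 9792 CPM in flox and 6813 to 7026 CPM in KI. Hepatoblast markers, which share genes with the visceral endoderm list, summed to 110 to 117 CPM in flox and 9.57 to 10.6 CPM in KI, and trophoblast markers to 3196 to 3210 CPM and 4211 to 5098 CPM. The part of a different cell makeup in the apolipoprotein levels was not tested.

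**Figure D2:**
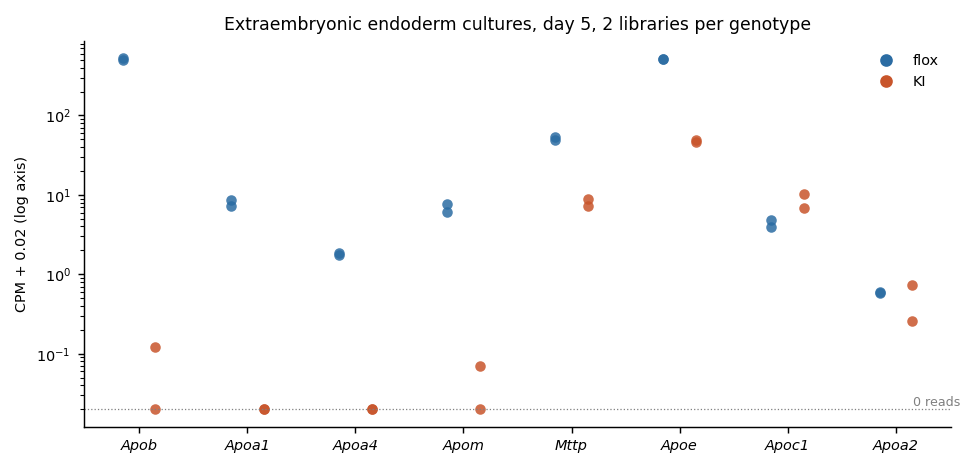
CPM (log axis, 0.02 CPM added) of the 8 measured genes in the 4 extraembryonic endoderm libraries, flox beside KI, 1 point per library. Apob, Apoa1, Apoa4 and Apom drop to at most 2 reads in KI, Apoe and Mttp stay measurable, and Apoc1 lies higher in KI.

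Genes that act on the same pathway were read from lists in the same way, as a description. Of 13 transcription factors at 1 CPM or more, 6 were at least 2-fold lower in KI and 0 higher, where 471 of all 13892 genes (3.39%) were lower and 534 higher by the same rule. Hnf4a, a nuclear receptor that binds apolipoprotein promoters in liver, had a mean of 26.5 CPM in flox and 0.0974 CPM in KI (n = 2 each). Gata4, an endoderm GATA factor, had 176 and 16.6 CPM. Of 12 lipoprotein receptors and their chaperones, 4 were lower and 0 higher, among them Cubn, which takes up Apoa1 at the apical surface, with 452 CPM in flox and 2.25 CPM in KI, and its partner Amn with 25.1 and 1.13 CPM. Dab2, an endocytic adaptor, had 386 and 77.2 CPM. Hnf4a, Cubn, Amn and Dab2 are also in the visceral endoderm marker list, here and in the comparisons below, so the 2 readings are not separate observations.

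Of 12 assembly and secretion partners, 2 were lower and 0 higher in KI extraembryonic endoderm: Soat2, which esterifies cholesterol for packaging, with 9.92 CPM in flox and 0.509 CPM in KI, and Dgat2, which makes triglyceride, with 11.5 and 3.27 CPM. Of 8 lipases and lipid transfer genes, 3 were higher and 0 lower. Abca1, the pump that loads lipid onto Apoa1, had 41.9 CPM in flox and 126 CPM in KI, Abcg1 had 3.04 and 14.6 CPM, and Angptl4, an inhibitor of lipoprotein lipase, had 0.495 and 3.63 CPM. Apobr, a receptor for Apob-containing particles found on macrophages, was counted with the other apolipoproteins and not with the receptors. It had 6.13 CPM in flox and 28.1 CPM in KI and was 1 of 2 genes of that list at 1 CPM or more, of which 1 was higher and 0 lower.

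Embryoid bodies form an outer endoderm layer as they grow, and there the KI libraries did not lack Apob. At day 10 the flox library had 91.7 CPM of Apob, and KI clones 27 and 48 had 262 and 221 CPM. Apom had 3.30 CPM in flox and 15.1 and 10.9 CPM in KI. Apoa1 had 15.5 CPM in flox and 36.7 and 30.1 CPM in KI, and Mttp had 19.3 CPM in flox and 39.8 and 37.0 CPM in KI. All 4 genes had higher values in both KI clones, the opposite side of flox from that in extraembryonic endoderm.

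Apoe had 410 CPM in the flox day 10 library and 689 and 599 CPM in KI, and Apoa4 stayed low, with 0.233 CPM in flox and 0.511 and 0.625 CPM in KI. Of 5 members at 1 CPM or more, Apob and Apom were at least 2-fold above flox in both clones with 0.5 CPM added, a rule met by 3.52% of all genes, and 0 were below. The median log2 ratio of all 8 measured members was 0.81, and that of the 14470 genes at 1 CPM or more 0.00. With 1 flox library this day has no replicate check and no test. Summed visceral endoderm markers stood beside it at 212 CPM in flox and 996 to 1247 CPM in KI, with none at the floor, and summed macrophage markers at 79.7 CPM in flox and 36.5 to 160 CPM in KI. Other lists moved as well: parietal endoderm markers summed to 4449 CPM in flox and 8047 to 8984 CPM in KI, hepatoblast markers to 53.5 and 172 to 180 CPM, and trophoblast markers to 786 and 1179 to 1814 CPM. The part of these cell types was not tested.

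The pathway lists were counted by the same rule. Of 15 transcription factors, 6 were at least 2-fold above flox in both clones and 0 below, among them Hnf4a (4.73 CPM in flox, mean 31.9 CPM in KI) and Foxa3 (1.78 and 13.6 CPM). Of 12 receptors and chaperones, 3 were higher and 0 lower: Amn (0.582 and 9.10 CPM), Dab2 (88.4 and 482 CPM) and Lrpap1, a chaperone of lipoprotein receptors (117 and 369 CPM). Of 9 lipases and transfer genes, 1 was lower, Lpl, which hydrolyses the triglyceride of circulating particles (62.1 and 20.6 CPM), where 571 of all 14470 genes were lower by the rule.

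Earlier in the course the values differed from day 10. At day 4, Apob had 3.01 CPM in flox and 1.23 and 1.40 CPM in KI, 2.29-fold lower by means. With 0.5 CPM added, none of the 5 members at 1 CPM or more met the 2-fold rule, which 1.46% of all genes met above flox and 4.46% below. Marker sums were lower in KI at day 4 as well: 87.8 CPM in flox and 34.4 to 41.5 CPM in KI for visceral endoderm, 1682 and 707 to 858 CPM for parietal endoderm, and 2261 and 828 to 894 CPM for trophoblast. Their part was not tested. In embryonic stem cells, Mttp was the only one of 4 members to meet it, with 1.75 CPM in flox and 4.03 and 4.25 CPM in KI, where 5.12% of all genes met it above flox and 2.53% below. Apoe in stem cells had 1124 CPM in flox and 725 and 704 CPM in KI, and Apoc1 had 13.2 CPM in flox and 18.6 and 19.2 CPM in KI. A fit over the 3 days, in which the days serve as blocks, called 0 of 8 members between KI and flox at an adjusted p under 0.05 (edgeR quasi-likelihood test with Benjamini-Hochberg adjustment), with 0.730% of all genes called. DESeq2 also called 0 of 8, and the lowest unadjusted edgeR p among the members was 0.0982, for Apoa4.

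Within the KI clones the course itself could be tested with 2 libraries a day. From day 0 to day 4, 4 of 8 members were called, where 50.3% of all genes were. Apob was higher at day 4 by 1.28 on the log2 scale (SE 0.37, edgeR adjusted p = 0.0257), while Apoa2, Apoc1 and Apoe were lower, at -1.63, -2.38 and -0.68. The Apob call was lost without the clone 27 library of day 0 (log2 0.77, adjusted p = 0.0996 by edgeR) and without either day 4 library (adjusted p = 0.0813 and 0.129), and the value was 2.04 without the clone 48 library of day 0. Over these days pluripotency markers in KI went from 6327 to 6769 CPM at day 0 to 1918 to 1981 CPM at day 4, and trophoblast markers from 145 to 149 CPM to 828 to 894 CPM. Their part was not tested. From day 4 to day 10, 8 of 8 were called, with 73.3% of all genes: Apob rose by 7.43 (SE 0.21, adjusted p = 8.09e-07), Apoa1 by 8.05 (SE 0.51), Apom by 5.47 (SE 0.37), Mttp by 2.78 (SE 0.15), Apoa4 by 3.42 (SE 0.70) and Apoe by 0.35 (SE 0.08) on the log2 scale. Apoa2 and Apoc1 were lower at day 10, at -2.50 and -2.79. The Apoa1 value rests on 5 reads in 1 of the 2 day 4 libraries and 0 in the other, and was 12.47 without the day 4 library of clone 27 and 7.08 without that of clone 48. The Apoc1 value was -4.0 without the day 10 library of clone 27 and -2.06 without that of clone 48. Visceral endoderm markers summed to 34.4 to 41.5 CPM at day 4 and 996 to 1247 CPM at day 10 in KI, and parietal endoderm markers to 707 to 858 CPM and 8047 to 8984 CPM. Their part in these changes was not tested. The Apoa4 value compares 25 reads with 2, a ratio of 12.6 by summed reads (exact 95% counting interval 3.15 to 110). Its call was lost with DESeq2 (adjusted p = 0.0636) and without either day 4 library (edgeR adjusted p = 0.0549 and 0.0573), and that of Apoe without the day 4 library of clone 48 (0.0504).

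**Figure D3:**
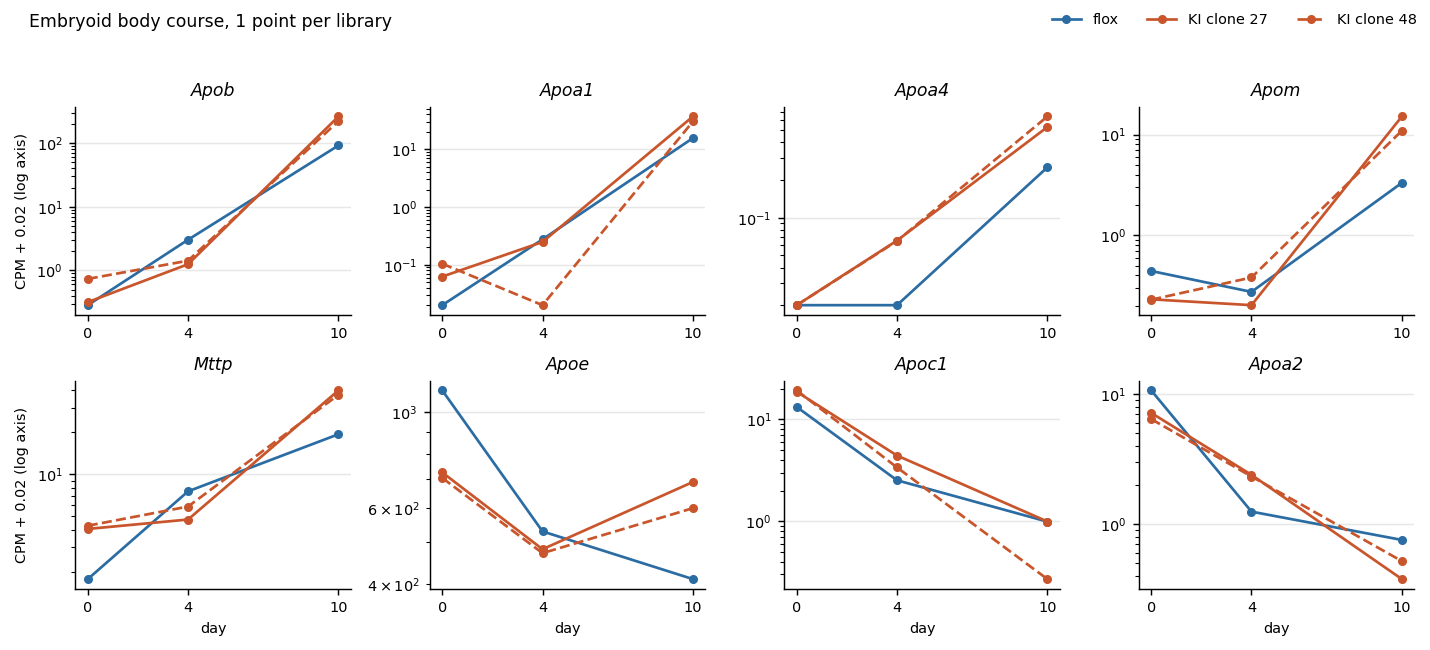
CPM (log axis, 0.02 CPM added) of the 8 measured genes at days 0, 4 and 10 of embryoid body growth, 1 point per library, with the flox library and KI clones 27 and 48 marked apart. Apob, Apoa1, Apom and Mttp climb between days 4 and 10 and end higher in both KI clones than in flox.

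In day 8 neural progenitor cultures, where apolipoprotein levels are low, KI again had less Apob. Apob had 1.39 and 1.29 CPM in flox and 0.207 and 0.225 CPM in KI, lower by -2.58 on the log2 scale (SE 0.35, n = 2 each, edgeR adjusted p = 1.98e-04). Apoa1 had 3.06 and 2.93 CPM in flox and 0.804 and 1.62 CPM in KI (log2 -1.26, SE 0.27, edgeR adjusted p = 0.00594). Apoa4 had 0.510 and 0.274 CPM in flox and 0.115 and 0.0614 CPM in KI (log2 -2.08, SE 0.58, edgeR adjusted p = 0.0302). The flox and KI libraries do not overlap for any of the 3, and for 37.4% of all genes at 1 CPM or more both KI libraries lay below both flox libraries.

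These 3 calls among 8 members compare with 13.2% of all genes called lower at day 8. The calls of Apob and Apoa1 held in 9 of 9 alternatives and that of Apoa4 in 5 of 9. The log2 value of Apoa1 was -1.87 without KI clone 48 and -0.85 without KI clone 27. Apoa4 lost its call with DESeq2 (adjusted p = 0.282), without flox replicate 1 (edgeR adjusted p = 0.259) and without either KI clone (0.098 and 0.216). Mttp, with 14.9 and 14.7 CPM in flox and 14.1 and 15.9 CPM in KI, was not called (log2 0.06, SE 0.13, edgeR adjusted p = 0.835). Apoe was not called either (log2 -0.18, SE 0.12, edgeR adjusted p = 0.360).

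Summed visceral endoderm markers were 42.6 to 44.6 CPM in flox and 22.3 to 23.2 CPM in KI at day 8, with Afp and Aqp8 at most 3 reads in both groups and Spink1 at most 3 reads in KI. Parietal endoderm markers summed to 998 CPM in flox and 609 to 623 CPM in KI, and neuronal markers to 2174 to 2175 CPM and 1366 to 1608 CPM. Hepatoblast markers summed to 48.9 to 53.6 CPM in flox and 51.6 to 65.2 CPM in KI. Prox1 made up most of that sum, with means of 44.6 CPM in flox and 57.1 CPM in KI. Of the same list, Hhex (1.70 and 0.727 CPM), Ttr (0.805 and 0.161 CPM), Serpina1b (1.27 and 0.0676 CPM), Fgb (0.195 and 0.0766 CPM) and Hnf4a were lower in KI. The part of these cells in the result was not tested. Of 16 transcription factors tested, 4 were lower and 3 higher in KI, where 13.2% of all genes were called lower and 6.30% higher. Gata4 went from a mean of 42.0 CPM in flox to 7.22 CPM in KI (log2 -2.51, SE 0.17, edgeR adjusted p = 1.05e-06) and Hnf4a from 0.921 to 0.199 CPM (log2 -2.19, SE 0.46), while Foxa1, a floor plate and endoderm factor, was higher (log2 1.94, SE 0.16). Of 12 receptors and chaperones, 2 were lower and Lrp2, the megalin receptor that binds several apolipoproteins, was higher, from 17.5 to 63.9 CPM (log2 1.90, SE 0.16). Of 9 lipases and lipid transfer genes, 5 were lower and 0 higher, among them Abcg1 (7.30 to 1.77 CPM, log2 -2.03, SE 0.20).

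In day 16 neuronal cultures Apob and Apoa4 RNA was almost gone and Apoe carried the difference. Apob and Apoa4 had at most 1 read and 0 reads in each library. Apoe had 138 and 167 CPM in flox and 67.0 and 74.8 CPM in KI, lower by -0.90 on the log2 scale (SE 0.12, n = 2 each, edgeR adjusted p = 9.60e-05, called in 9 of 9 alternatives). The fit called 2 of 8 members lower, with 19.7% of all genes called lower. The second was Apoc1, whose call rests on 4 reads in flox and 0 in KI, at or under the floor in every library, so no fold is given. Apob, Apoa4 and Apoc1 entered the fit only through the day 8 libraries, so the 8 include genes without a testable level here. Mttp, with 16 and 12.8 CPM in flox and 11.9 and 11.1 CPM in KI, was not called (log2 -0.12, SE 0.13, edgeR adjusted p = 0.445).

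The KI effect on Apoe differed between the days: the interaction was -0.72 on the log2 scale (SE 0.17, edgeR adjusted p = 0.00707) and was called in 13 of 13 alternatives. Apoe was the 1 member called for that difference, with 33.2% of all genes called. The markers of astrocytes and radial glia, cells that make Apoe, summed to 305 to 308 CPM in flox and 208 to 211 CPM in KI at day 8, and to 1010 to 1082 CPM and 797 to 920 CPM at day 16. Macrophage markers summed to at most 2.49 CPM in these 8 libraries. At day 16, parietal endoderm markers summed to 1493 to 1556 CPM in flox and 505 to 693 CPM in KI, visceral endoderm markers to 33.5 to 35.8 CPM and 13.7 to 17.1 CPM, and neuronal markers to 5112 to 5349 CPM and 7739 to 8354 CPM. The part of these cells in the Apoe levels was not tested.

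Between the days, members changed in both genotypes, which were tested apart. In flox, 6 of 8 members changed from day 8 to day 16, with 77.1% of all genes called: Apob, Apoa1 (log2 -2.16, SE 0.30), Apoa4 and Apoc1 were lower, and Apoe (1.02, SE 0.12) and Apoa2 (1.05, SE 0.32) higher. By summed reads Apob was 126-fold lower (exact 95% counting interval 22.2 to 5003), and Apoa4 was at least 5.96-fold lower against the floor. Apoc1 had 26 reads at day 8 and 4 at day 16, where both libraries were under the floor. In KI, 6 of 8 changed, with 79.9% of all genes called: Apob, Apoa1 (log2 -1.27), Apoa4 and Apoc1 were lower and Apoa2 (1.48) and Apoe (0.30) higher. For the genes at or under the floor at day 16, Apob was 24.7-fold lower by summed reads (counting interval 3.94 to 1022), Apoa4 at least 1.67-fold lower and Apoc1 at least 2.06-fold lower. Several of these calls depend on the test or on single libraries. In flox, DESeq2 did not call Apoa2 (adjusted p = 0.0973) or Apoc1 (0.0653), and the Apoa2 call was lost without day 8 replicate 2 (edgeR adjusted p = 0.0894). In KI the Apoe call was lost with RLE scaling (edgeR adjusted p = 0.0529) and with summed transcripts (0.0685). It was also lost without the day 8 library of clone 27 (edgeR adjusted p = 0.256) or the day 16 library of clone 48 (0.297), and that of Apoa1 without the day 8 library of clone 48 (0.0880). The Apoa4 call in KI was lost without the clone 27 library of either day (edgeR adjusted p = 0.0785 and 0.0568) or the day 16 library of clone 48 (0.0612).

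In trophectoderm-like cells, which express little Apob, KI had less Apoe. Apoe had 1216 and 1177 CPM in flox and 236 and 396 CPM in KI, 3.79-fold lower by means, or -1.89 on the log2 scale (SE 0.25, n = 2 each, edgeR adjusted p = 0.00396). Mttp was slightly lower, with 9.59 and 11.9 CPM in flox and 7.19 and 8.38 CPM in KI (log2 -0.44, SE 0.15, edgeR adjusted p = 0.0288). These were 2 of 8 members called, both lower, with 24.2% of all genes called lower. Of the 8, Apob, Apoa1, Apoa4 and Apom had at most 6 reads in any of these libraries. They entered the fit only through the extraembryonic endoderm libraries, so the 8 include genes without a testable level here. Apoc1, the neighbour of Apoe, had 32.1 and 29.0 CPM in flox and 30.5 and 27.8 CPM in KI (log2 -0.03, SE 0.15, edgeR adjusted p = 0.873). Apob had 0.165 and 0.154 CPM in flox and 0.145 and 0.218 CPM in KI, and Apoa4 had 0 reads in all 4 libraries.

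Fitted on the 4 trophectoderm libraries alone, without the extraembryonic endoderm libraries that otherwise share the estimate of spread, the Apoe call was lost (log2 -1.91, edgeR adjusted p = 0.0519), as was that of Mttp (log2 -0.45, adjusted p = 0.0574), with nearly the same fold changes. The Mttp call was also lost without flox replicate 2 (log2 -0.30, edgeR adjusted p = 0.209) and without KI clone 27 (log2 -0.36, adjusted p = 0.132). Apoa2 was not called (log2 -1.92, edgeR adjusted p = 0.0681), but was without the low-count filter (edgeR adjusted p = 0.0405). Its log2 value was -4.98 without KI clone 48 and -1.02 without KI clone 27. Pluripotency markers moved with Apoe, at 1658 to 1665 CPM in flox and 495 to 704 CPM in KI. Neuronal markers did too, at 135 to 139 CPM and 39.2 to 44.1 CPM. Trophoblast markers moved against it, as did macrophage markers, at 9.92 to 14.1 CPM in flox and 21.9 to 25.9 CPM in KI. Csf1r held 20.5 to 22.9 CPM of the latter. Embryonic stem cells had 7887 CPM of the pluripotency markers and 1124 CPM of Apoe in flox, and 6327 to 6769 CPM and 704 to 725 CPM in KI. The part of these cell types, or of cells that had not left the pluripotent state, was not tested.

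Most receptors and chaperones tested in these cells were called, in both directions. Of 12 receptors and chaperones, 6 were higher and 5 lower in KI. Vldlr, a receptor for Apoe-containing particles, went from 8.74 to 44.7 CPM (log2 2.38, SE 0.14, edgeR adjusted p = 1.14e-08). Of 8 lipases and transfer genes, 4 were higher and 0 lower, among them Abca1 (11.4 to 57.0 CPM, log2 2.36, SE 0.09) and Lpl (8.85 to 15.5 CPM, log2 0.84, SE 0.24). Of 13 assembly partners, 4 were higher and 2 lower, with Dgat2 higher (log2 1.78, SE 0.16) and Sort1, a sorting receptor that binds Apob, lower (log2 -1.53, SE 0.09). Over all genes 50.9% were called in either direction.

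**Figure D4:**
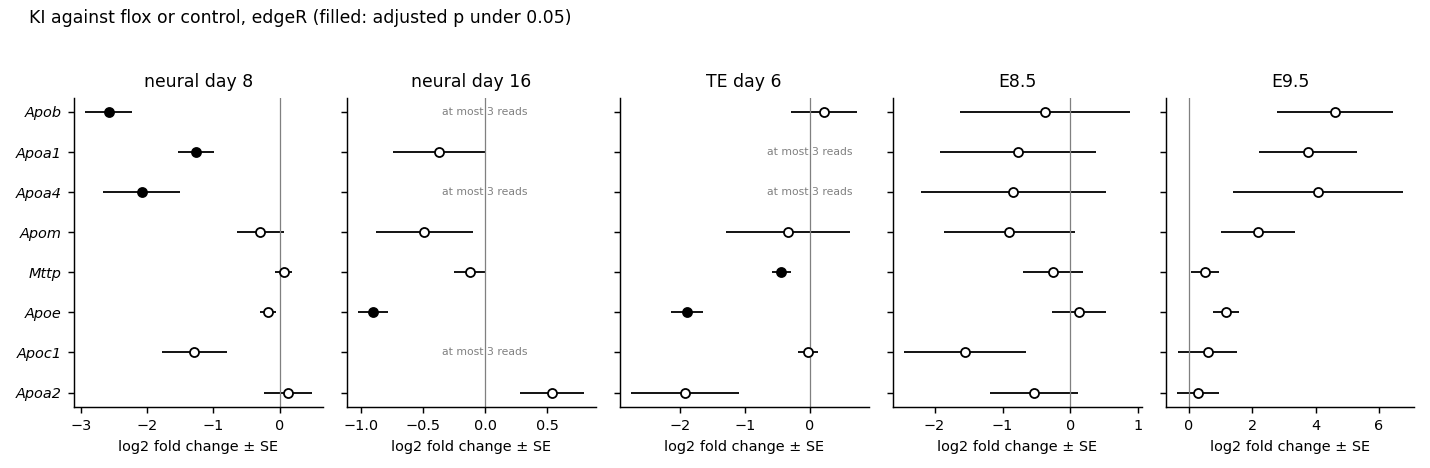
Log2 fold change of KI against flox or control with its SE for the members in each tested comparison, filled where the edgeR adjusted p is under 0.05, with x axes that differ between panels. Members at or under 3 reads in both groups are left out, Apoe lies below 0 in the trophectoderm and day 16 neural panels, and the E9.5 values above 0 carry wide errors.

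In E8.5 embryos the members varied more between embryos than between genotypes. Apob had 159, 7.82 and 40.9 CPM in the 3 controls and 123, 3.54 and 31.8 CPM in the 3 KI embryos. Apoa1 had 88.2, 13.2 and 50.1 CPM in controls and 72.2, 1.73 and 13.7 CPM in KI. Apoe had 273, 96.7 and 146 CPM in controls and 283, 124 and 153 CPM in KI. Groups overlap for all 8 members. Embryos are listed above in the order of their title numbers, each shared by a control and a KI embryo. Within each number Apob, Apoa1, Apoa4, Apoc1, Apom and Mttp were lower in KI, Apoe was higher and Apoa2 went both ways. A fit with these numbers as blocks is given in the closing section. The edgeR fit over the 12 embryos called 0 of 8, with 5.46% of all genes called, and DESeq2 called 0 as well. No member had an unadjusted edgeR p under 0.05, and the lowest was 0.103, for Apoc1.

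The same embryos differed in visceral endoderm RNA. Its summed markers were 505, 164 and 282 CPM in the controls and 423, 126 and 200 CPM in the KI embryos, in the order in which Apob is given above, and the embryo highest in Apob was highest in each group. None of the 14 markers was at or under 3 reads in all embryos of a group. How much yolk sac endoderm each sample held is not given by the labels and was not tested.

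At E9.5 the controls held little Apob and the KI embryos more. Apob had 1.19, 1.04 and 0.716 CPM in controls and 44.6, 21.8 and 6.63 CPM in KI, a 24.8-fold difference of means. Every KI embryo lay above every control. The edgeR fit over the 12 embryos gave 4.62 on the log2 scale with an SE of 1.83 (n = 3 each, adjusted p = 0.0960), which does not pass the threshold. Apoa1 had 1.15, 0.965 and 1.61 CPM in controls and 30.7, 15.4 and 3.98 CPM in KI, 13.4-fold by means (log2 3.77, SE 1.55, edgeR adjusted p = 0.106). Apoe had 50.0, 53.2 and 45.4 CPM in controls and 129, 109 and 96.4 CPM in KI, 2.25-fold by means (log2 1.17, SE 0.42, edgeR adjusted p = 0.0696).

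Apom had 0.318, 0.928 and 1.03 CPM in E9.5 controls and 5.38, 2.83 and 2.03 CPM in KI (log2 2.18, SE 1.17, edgeR adjusted p = 0.207). Mttp had 9.13, 9.24 and 11 CPM in controls and 13.0, 13.7 and 15.2 CPM in KI (log2 0.51, SE 0.44, edgeR adjusted p = 0.432). Apoa4 had 0, 0.148 and 0 CPM in controls and 2.32, 0.429 and 0.177 CPM in KI (log2 4.08, SE 2.68, edgeR adjusted p = 0.298). The Apoa4 value ran from 2.38 without KI replicate 1 to 7.47 without control replicate 2, which held the 4 control reads. Of 6 members at 1 CPM or more, 5 had every KI embryo above every control, and 23.7% of all genes at that level did. The fit called 0 of 8 members, with 29.5% of all genes called, and 3 members had an unadjusted p under 0.05.

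Without E9.5 KI replicate 1, which had the most Apob, the value for Apob fell to 3.82 on the log2 scale (edgeR adjusted p = 0.212), and over all 6 leave-outs it ran from 3.82 to 5.06. That of Apoa1 ran from 2.97 without KI replicate 1 to 4.23 without KI replicate 3. The calls also depend on the fit. Fitted on the 6 E9.5 embryos alone, edgeR called Apob (log2 4.62, adjusted p = 0.0280), Apoa1 (3.76, 0.0441), Apoe (1.17, 1.05e-05), Apom (2.17, 0.00482) and Mttp (0.51, 0.0203), 5 of 7 members tested, all higher, with 14.6% of all genes called higher. DESeq2 on the 12 embryos called Apob, Apoa1 and Apoe (adjusted p = 9.69e-04, 0.00535 and 0.0226).

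Marker lists moved with the members at E9.5. Visceral endoderm markers summed to 91.4, 109 and 118 CPM in controls and 292, 196 and 164 CPM in KI. Hepatoblast markers, which share Afp, Hnf4a, Serpina1b and Fgb with that list, summed to 37.4, 54.3 and 55.4 CPM in controls and 157, 99.7 and 73.5 CPM in KI. Of the 10 hepatoblast markers, Ahsg was at or under 3 reads in every E9.5 embryo. Alb, the albumin gene of liver, had 0 reads in every E8.5 embryo, and at E9.5 had means of 1.41 CPM in controls and 0.808 CPM in KI. Neuronal markers summed to 259 to 370 CPM in controls and 112 to 116 CPM in KI, and to 98.5 to 109 CPM in E8.5 controls. Trophoblast markers summed to 204, 248 and 428 CPM in controls and 662, 644 and 628 CPM in KI. The part of yolk sac tissue, liver primordium, trophoblast or developmental stage in the apolipoprotein levels was not tested.

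**Figure D5:**
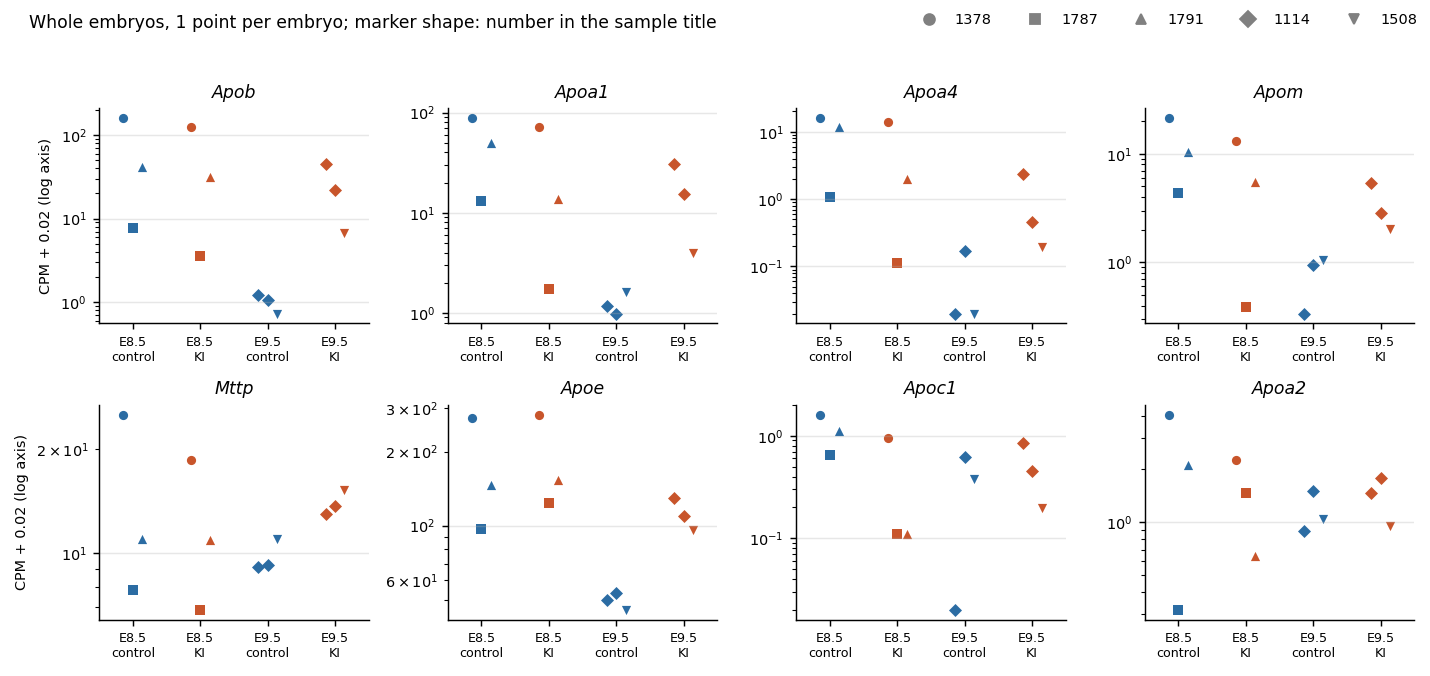
CPM (log axis, 0.02 CPM added) of the 8 measured genes in the 12 embryos, by stage and genotype, 1 point per embryo. Marker shape gives the number in the sample title, E9.5 KI embryos lie above all E9.5 controls for Apob, Apoa1, Apoa4, Apom, Mttp and Apoe, and E8.5 embryos of both genotypes overlap. For Apoa4 the closest E9.5 KI and control embryos had 4 reads each.

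Among the pathway lists at E9.5, 4 of 15 transcription factors were higher and 1 lower, where 2253 of all 15436 genes were called higher and 2307 lower. Gata6 went from 28.3 to 91.9 CPM (log2 1.70, SE 0.10, edgeR adjusted p = 1.22e-09) and Gata4 from 17.6 to 49.6 CPM (log2 1.49, SE 0.20). Of 12 receptors and chaperones, 4 were higher and 1 lower: Vldlr went from 17.0 to 97.4 CPM (log2 2.51, SE 0.28, edgeR adjusted p = 2.20e-04), and Lrp8, the Apoe receptor of the brain, from 47.7 to 30.7 CPM (log2 -0.64, SE 0.12). Of 12 assembly partners, 4 were higher and 0 lower, among them Soat1, a cholesterol esterifying enzyme (log2 0.95, SE 0.08). Of the other apolipoproteins, Apod was lower (log2 -2.81, SE 0.52) and Clu higher (log2 0.76, SE 0.21).

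Between stages, control embryos had less of most members at E9.5 than at E8.5. The edgeR fit called 5 of 8, all lower, with 12.1% of all genes called lower. Apob was 70.4-fold lower by means (log2 -6.16, SE 1.82, adjusted p = 0.0416), Apoa1 40.6-fold (log2 -5.40, SE 1.55, adjusted p = 0.0370) and Apom 15.8-fold (log2 -4.03, SE 1.17, adjusted p = 0.0380). Apoa4 (log2 -7.39, SE 2.28, edgeR adjusted p = 0.0484) and Apoe (log2 -1.85, SE 0.42, adjusted p = 0.0146) were lower too. Leaving out any 1 control embryo other than E8.5 replicate 2 left 1 member called, Apoe, and leaving out E8.5 replicate 2 left 6 called. In those 5 leave-outs the edgeR adjusted p of Apob ran from 0.0626 to 0.130, that of Apoa1 from 0.0693 to 0.123, that of Apom from 0.0684 to 0.117 and that of Apoa4 from 0.0912 to 0.157. The Apoa4 value rests on 1 E9.5 control, replicate 2, with 0 reads in the other 2, and was -10.80 on the log2 scale without it. Without E8.5 replicate 1, which had the most Apob, the log2 values were -4.69 for Apob, -4.76 for Apoa1, -6.84 for Apoa4 and -3.36 for Apom. Marker sums differed between these embryos too, from E8.5 to E9.5 controls: 164 to 505 and 91.4 to 118 CPM for visceral endoderm, 49.8 to 160 and 37.4 to 55.4 CPM for hepatoblasts, 643 to 786 and 204 to 428 CPM for trophoblast, and 98.5 to 109 and 259 to 370 CPM for neurons. Their part in the difference was not tested. Since all control embryos at E9.5 share the comparison with KI, that comparison and this one are not independent.

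The KI effect was not shown to differ between E8.5 and E9.5. The interaction called 0 of 8 members, with 6.63% of all genes called. It was 4.99 for Apob (SE 2.26, edgeR adjusted p = 0.249) and 4.54 for Apoa1 (SE 1.94, adjusted p = 0.221) on the log2 scale. Over leave-outs it ran from 3.5 without E8.5 control replicate 1 to 6.57 without E8.5 KI replicate 1 for Apob, and from 3.75 without E9.5 KI replicate 1 to 6.47 without E8.5 KI replicate 1 for Apoa1. The unadjusted p of Apoa1, 0.0470, was the 1 member value under 0.05, and DESeq2 called 2 members, Apob and Apoa1 (adjusted p = 0.0382 and 0.0491).

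As a description of the patterns over the 18 group means of log2 CPM, each member was set beside 16110 other genes by Pearson's r. The group means share culture and library depth, so no test is given. Apob was most like Hnf4a, Spink1 and Ttr, the thyroid hormone carrier of visceral endoderm and liver (r = 0.94 each). Apoa1 was most like Ttr (0.96), Spp2 (0.93) and Kif12 (0.92), and Apom most like Ttr (0.98), Spp2 (0.97) and Habp2 (0.93). Ttr had 21.0 CPM in flox extraembryonic endoderm and 69.4 CPM in KI day 10 embryoid bodies. Among the members themselves, r was 0.94 between Apob and Apom, 0.95 between Apoa1 and Apom and 0.88 between Apob and Apoa1, but 0.22 between Apob and Apoe.

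The other members had different nearest genes. Apoa4 was most like Ccdc198 (0.95), Slc2a2, the liver and gut glucose transporter (0.89), and Fga (0.87). Apoc1 was most like Slc44a4 (0.98), and Apoe most like Tdh, a threonine-degrading enzyme of mouse embryonic stem cells (0.88). Apoc1 and Apoe had r = 0.62 with each other. Mttp was most like Flrt3, Zim1 and Rin2 (0.87 each), and its r with Apob was 0.69. Apoa2 was most like Apod (0.94).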

How the data were processed

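RNA tables of 37 libraries in 18 groups were used. The labels list 100 samples, and the other 63, among them 1 RNA sample, are not used here. The authors deposited raw read counts and RPKM for 29082 transcripts in every table, per the file headers. The submitters' processing notes name mm9 and STAR. The transcript accessions were matched to symbols in a RefSeq table on GRCm38.p6 (28436 matched, 646 kept by accession), and the transcript with most reads over all libraries was kept per symbol. CPM is a gene's reads per 1000000 gene-level reads. RPKM served only to rank genes within a group. Mttp and Apoc1 have a second listed transcript, which held 94.2% and 91.6% as many reads.

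Tests used edgeR 4.0.16 in R 4.3.3 (TMM, filterByExpr, robust quasi-likelihood) on whole count tables, with Benjamini-Hochberg adjustment over all genes and a threshold of 0.05. Log2 ratios given without a test add 0.5 CPM. The scripts were tested on simulated data. Alternatives were RLE scaling, DESeq2 1.42.0, no low-count filter, summed transcripts, only the libraries compared, a replicate block and each library left out. Where only 1 library of a group remained, its spread was assumed to be like that of the other groups. Libraries of the same KI clone come from the same line on different days and deviated together (correlations 0.27, 0.12 and 0.11 in the embryoid body course, 0.19 in neural cultures). A clone block there left the number of members called as it was.

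The members and lists were chosen with earlier results of these data known. Named genes beyond the members are, per list and comparison, the 3 largest called changes, then the most like genes, and some genes that this rule picks are not reported here. Apoc2 is not analysed here because no table row was matched to it.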

Additional observations from a re-analysis of the deposited data

Results flagged for a closer look

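The KI effect on Apoe differed between day 8 and day 16 of the neural cultures: the interaction in the edgeR fit was -0.72 on the log2 scale (adjusted p = 0.00707), with lower Apoe in KI at day 16 in 2 of 2 clones.

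Some members lay on opposite sides of their flox or control libraries in different cultures, with every library of each group on 1 side. These values are means over the KI libraries of the log2 ratio of CPM, with 0.5 CPM added, to flox or control, and the difference between cultures was not tested. Only values of at least 1 in size are listed so. On the same scale Mttp was at 0.97 in day 10 embryoid bodies and 0.50 at E9.5, and Apoe at 0.65 in day 10 embryoid bodies. Apob was at -9.88 in extraembryonic endoderm and -1.36 in day 8 neural cultures, but at 1.38 in day 10 embryoid bodies and 3.72 in E9.5 embryos. Apoa1 followed with -4.06 and -1.07 in the first pair and 1.07 and 2.92 in the second. Apom was at -3.81 in extraembryonic endoderm, 1.81 in day 10 embryoid bodies and 1.60 at E9.5. Apoa4 was at -2.19 in extraembryonic endoderm and 1.15 at E9.5. Apoa1 and Apoa4 had 0 reads in both KI extraembryonic endoderm libraries, so -4.06 and -2.19 are set by the 0.5 CPM added. At E9.5 the closest Apoa4 values, 0.177 CPM in KI replicate 3 and 0.148 CPM in control replicate 2, stand for 4 reads each. Apoe was at -3.42 in extraembryonic endoderm, -1.97 in trophectoderm-like cells and -1.10 in day 16 neural cultures, and at 1.16 at E9.5. Mttp was at -2.63 in extraembryonic endoderm and 1.05 in embryonic stem cells. The embryoid body and stem cell values rest on 1 flox library a day. No group has 4 or more libraries, so single libraries were not tested for standing apart.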

How the results depend on the processing

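The log2 values of the members had 1002 alternative values, of which 906 kept direction and side of the threshold, 48 lost a call, 24 gained one and 24 changed sign. Counts of members called changed, among others, as follows. In day 16 neural cultures 2 became 1 with DESeq2, without the low-count filter, on the libraries compared alone and in all 4 leave-outs (1 to 1), because the Apoc1 call on 4 reads was lost. For the difference between neural days, leave-outs gave 1 to 2. In trophectoderm 2 became 0 on its 4 libraries alone and 1 to 3 in leave-outs. At E9.5, 0 became 3 with DESeq2 and 5 on the 6 embryos alone. Control stages went from 5 to 3 without the filter and to 1 to 6 in leave-outs. The stage difference went from 0 to 2 with DESeq2. At neural day 8 Apoa4 was lost with DESeq2 and Apoc1 was gained with summed transcripts (edgeR adjusted p = 0.0241). Between neural days, DESeq2 lost Apoa2 and Apoc1 in flox, and RLE scaling and summed transcripts lost Apoe in KI. From day 4 to day 10 in KI, DESeq2 lost Apoa4. In trophectoderm Apoa2 was gained without the low-count filter (edgeR adjusted p = 0.0405). Apart from the first, the cause of these changes was not tested. Over all genes, called genes in the embryoid body course went from 121 to 777 with DESeq2 and to 0 and 1 in leave-outs. A replicate block took them from 843 to 1350 at E8.5 and from 1024 to 1547 for the stage difference. Leave-outs gave as few as 363 and 607 there, 1896 of 3202 at neural day 8, 3621 of 5450 for the difference between neural days and 4982 of 7882 from day 0 to day 4 in KI.

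Embryo title numbers are only shared numbers: deviations of same-numbered embryos had correlations of 0.25, 0.26 and 0.09 at E8.5 and -0.02 to 0.14 at E9.5. A replicate block on them called 1 member at E8.5 (Apob, -0.49, edgeR adjusted p = 0.0385), 5 at E9.5 and 3 for the stage difference.

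With 0.1 CPM added in place of 0.5, the median log2 ratio of the members went from -3.03 to -3.84 in extraembryonic endoderm, from 0.09 to 0.26 in stem cells and from 0.81 to 0.99 in day 10 embryoid bodies.

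Signs changed only for values that were not called. Mttp between neural days in flox was 0.01 with RLE scaling and with DESeq2, and -0.17 to 0.14 in leave-outs. The other ranges are over leave-outs. At neural day 8, Apoa2 ran from -0.01 to 0.24 and Mttp from -0.04 to 0.14, and at day 16 Mttp from -0.26 to 0.05. In trophectoderm, Apob ran from -0.10 to 0.45, Apoc1 from -0.14 to 0.03 and Apom from -1.03 to 1.04. At E8.5, Apob ran from -1.96 to 1.11, Apoa2 from -1.08 to 0.29, Apoe from -0.31 to 0.61 and Mttp from -0.71 to 0.35. Apoc1 at E9.5 ran from -0.08 to 1.43, Apoa2 in the stage difference from -0.01 to 1.36, and Apoc1 in the embryoid body course from -0.11 to 0.43. From day 0 to day 4 in KI, Apoa1 ran from -3.72 to 1.67 and Apom from -0.30 to 0.67. Depth limits Apoa4 most, with at most 3 reads in 20 of 37 libraries, then Apoa1 (10) and Apoc1 (7).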
